A study of Mus musculus with 12 samples.

Results

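Toll-like receptors (TLRs) and their partner Cd14 were followed across 4 sorted populations of mouse skin macrophages. The genes were taken from a fixed list of 10 names (Tlr1, Tlr2, Tlr3, Tlr4, Tlr5, Tlr6, Tlr7, Tlr9, Tlr13 and Cd14). Of these, 9 matched a probe set that the platform annotation assigns to them alone, each with 1 probe set, among 19938 genes measured, and Tlr5 had no match and was not analysed here. All cells came from the skin of untreated, wild-type C57BL/6 mice kept SPF and were sorted on the presence of CD11b and CD64 and the absence of CD24, Ly6C and CCR2. Melanophages and macrophages were each divided by MHC-II into a negative and a positive group, with 3 arrays in each of the 4 groups. Melanophages are macrophages loaded with melanin, here recognised by a high side scatter. The labels of the macrophages disagree on side scatter, which is high in their titles and low in their phenotype entry. The age of the mice, and whether the 3 arrays of a group came from different animals, are not stated in the labels, so the p-values rest on the spread of these arrays alone, and that spread may be technical.

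Toll-like receptors are membrane proteins that bind molecules characteristic of microbes and signal through adaptor proteins to NF-κB and interferon regulatory factors. TLR2 pairs with TLR1 or TLR6 at the cell surface to bind bacterial lipopeptides, and TLR4 binds lipopolysaccharide that CD14 hands to it. TLR3, TLR7, TLR9 and TLR13 sit in endosomes and bind nucleic acids, and macrophages of the skin meet ligands of both kinds.

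Tlr1 and Tlr6 are neighbouring genes on mouse chromosome 5 and encode the alternative partners of TLR2. Their upstream sequences are shown because the measured means of these partner genes were ordered differently over the 4 groups. Whether the genes differ in this, and any part of these sequences in it, was not tested. The 250 bases before the first listed start of each gene, taken from RefSeq (GRCm38.p6, minus strand), read 5′ to 3′ as follows, with motif matches in capitals.
Tlr1, chr5:64933559-64933808: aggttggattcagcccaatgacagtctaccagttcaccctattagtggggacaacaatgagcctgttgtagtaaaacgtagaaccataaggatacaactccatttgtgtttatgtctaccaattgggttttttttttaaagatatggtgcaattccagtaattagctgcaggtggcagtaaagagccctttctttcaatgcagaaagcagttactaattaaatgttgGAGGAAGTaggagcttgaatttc
Tlr6, chr5:64959167-64959416: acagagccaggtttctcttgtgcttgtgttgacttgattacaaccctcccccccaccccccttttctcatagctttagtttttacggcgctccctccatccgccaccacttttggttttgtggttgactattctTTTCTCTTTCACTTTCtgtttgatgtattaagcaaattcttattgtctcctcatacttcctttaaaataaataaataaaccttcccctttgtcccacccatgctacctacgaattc
In Tlr1 the capitals mark GAGGAAGT, a core of the type bound by the myeloid factor PU.1, which lay 16 to 23 bases before the start. In Tlr6 they mark an interferon response type of motif, 2 copies of GAAA with any 2 bases between them, matched on the opposite strand by 2 overlapping stretches. Both strands were searched, for these motifs and for an NF-κB type, GGG and TTTCC with any 2 bases between them, which matched neither of these windows. Of 32851 windows of the same length, 2.44% held GAGGAAGT, 2.98% the interferon response type and 1.41% the NF-κB type. Each of these genes has 2 listed starts, and the second window of either gene held none of the 3 motifs. In the table, 7 of the 10 genes had a window. Besides Tlr1 and Tlr6, these were Tlr2, Tlr3, Tlr5, Tlr9 and Tlr13, and the one further match was the NF-κB type in Tlr3. These are matches of letters, not measured binding sites.

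All values are log2 expression values, so a difference of 1 is a doubling, and differences were tested with limma in 1 fit of all genes and arrays, with genes counted as called when the p-value, adjusted by Benjamini-Hochberg over all genes, was under 0.05. Array medians over all probe sets lay between 2.97 and 3.08. The macrophage markers (9 of 10 measured) averaged between 8.75 and 9.24 on every array, and the 7 melanocyte markers between 2.97 and 3.25, close to the array medians. Of the melanocyte markers, Mitf alone had a group mean above 5, in both melanophage groups (5.04 and 5.08), against at most 4.82 in the macrophage groups. For melanophages minus macrophages, averaged over MHC-II class, all 7 had a difference above 0 (median 0.11), as had 10919 of 19938 genes. With limma 0 of the 7 were called. The arrays least like their group mates were replicate 1 of the MHC-II-negative macrophages and replicate 3 of the MHC-II-positive ones (SD of the difference 0.406 and 0.356, against 0.241 to 0.311 for the other arrays). In bulk RNA, fewer cells expressing a gene and less RNA per cell cannot be told apart.

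No member was called in any of the 7 comparisons. Between MHC-II-positive and MHC-II-negative cells, as a mean of both cell kinds, 0 of 9 members passed with limma, where 0.762% of all genes did. An unadjusted p under 0.05 was found for 5 of the 9 (9.23% of all genes). Within melanophages 0 of 9 passed (0.211% of all genes) and 3 had an unadjusted p under 0.05 (5.7% of all genes). Within macrophages 0 of 9 passed (0.341% of all genes) and 5 had an unadjusted p under 0.05 (7.83% of all genes). Melanophages and macrophages, averaged over MHC-II class, gave 0 of 9 calls (0.12% of all genes) and 2 unadjusted p under 0.05 (7.52% of all genes). In the MHC-II-negative class there were 0 calls (0.00502% of all genes) and 0 unadjusted p under 0.05 (5.65% of all genes). The MHC-II-positive class had 0 calls (0.015% of all genes) and 4 unadjusted p under 0.05 (6.3% of all genes). For the interaction, which asks whether the MHC-II difference differs between the cell kinds, 0 of 9 passed (0% of all genes) and 2 had an unadjusted p under 0.05 (4.11% of all genes). Between some groups the 3 arrays of one all lay above the 3 arrays of the other. MHC-II-positive arrays lay above MHC-II-negative arrays for Tlr1 and Cd14 within melanophages (5.12% of all genes) and within macrophages (4.96%), and below them for Tlr4 in melanophages (7.13%) and for Tlr6 and Tlr7 in macrophages (7.07%). Among MHC-II-positive cells, melanophages lay above macrophages for Tlr1, Tlr3, Tlr6 and Tlr7 (4 of 9 members, 7.51% of all genes) and below them for Tlr4 (4.91%). Among MHC-II-negative cells no member was separated in this way (0 above, 5.57% of all genes, and 0 below, 3.91%). No member was separated in the same direction between cell kinds in both classes (0.707% of all genes above, 0.456% below), and 0 lay lower with MHC-II in both cell kinds (0.762%). The median difference of the members was 0.03 for MHC-II (−0.02 over all genes) and 0.09 for cell kind (0.01 over all genes).

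**Figure D1:**
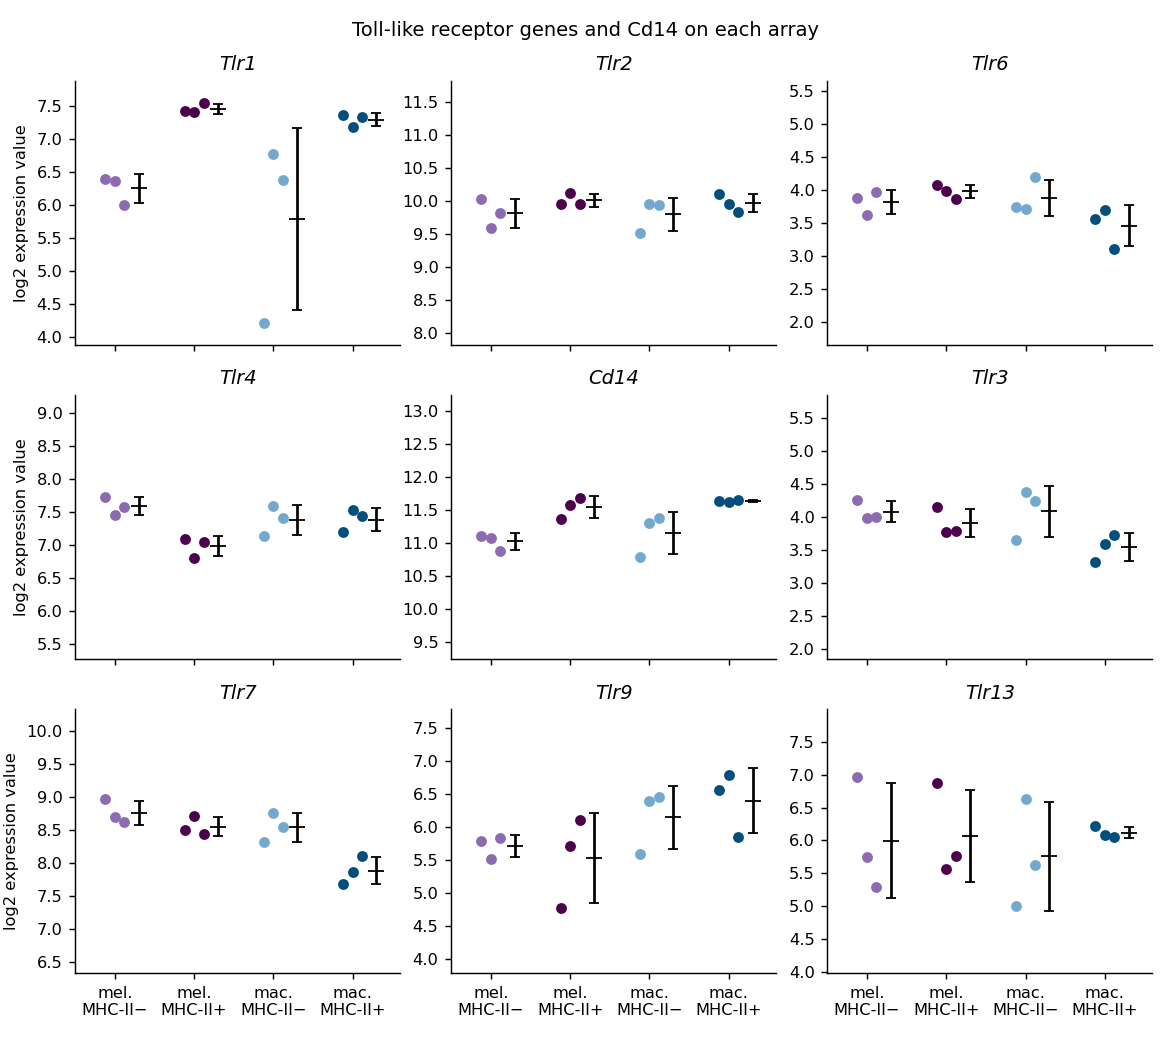
Log2 expression value of each measured gene on each of the 12 arrays, by group (mel., melanophages; mac., macrophages; 3 arrays per group), with the mean and SD as bars; every panel spans 4 log2 units. Tlr1 and Cd14 lie higher on the MHC-II-positive arrays of both cell kinds, Tlr7 is lowest in MHC-II-positive macrophages, and 1 MHC-II-negative macrophage array has a Tlr1 value of 4.21.

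Tlr1, which pairs with TLR2 to bind triacylated lipopeptides, measured 6.40, 6.36 and 6.00 in MHC-II-negative and 7.42, 7.41 and 7.55 in MHC-II-positive melanophages. In macrophages it measured 4.21, 6.77 and 6.38 in the MHC-II-negative and 7.36, 7.19 and 7.34 in the MHC-II-positive group. The MHC-II-positive arrays lay above the MHC-II-negative arrays in both cell kinds without overlap, which held for Tlr1 and Cd14 among the 9 members and for 1.11% of all genes. The log2 difference, averaged over cell kind, was 1.36 ± 0.36 (SE), or 2.56-fold, and did not pass (adjusted p = 0.17). It was 1.21 ± 0.50 in melanophages (adjusted p = 0.832) and 1.51 ± 0.50 in macrophages (adjusted p = 0.427), where 1 array set its size.

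The value of 4.21 came from MHC-II-negative macrophages replicate 1, an array that stood apart over all genes. Without it the difference within macrophages was 0.72 ± 0.15 (adjusted p = 0.112), below that of melanophages. The averaged difference was then 0.96 ± 0.10 and passed (adjusted p = 0.00207), as did the difference of 1.21 ± 0.13 within melanophages (adjusted p = 0.00584), whose estimate does not use that array but shares its estimate of spread. In a fit of the 6 melanophage arrays alone that difference also passed (1.21 ± 0.12, adjusted p = 0.0377). This array was the lowest of its group for 8 of the 9 members, all but Tlr6, and for 57.4% of the 3907 genes with a mean above 5. The order of the group means was melanophages (7.46 ± 0.08) before macrophages (7.29 ± 0.10) among MHC-II-positive cells, followed by melanophages (6.25 ± 0.22) and macrophages (5.79 ± 1.38) without MHC-II (SD, n = 3 each). The MHC-II-negative groups overlapped, and the MHC-II-positive groups lay next to each other without overlap. The last place of macrophages without MHC-II rested on replicate 1 (4.21). Their other arrays measured 6.77 and 6.38, against 6.00 to 6.40 in melanophages without MHC-II. Melanophages minus macrophages, averaged over MHC-II class, gave 0.31 ± 0.36 (adjusted p = 0.892) and changed its sign under 2 of 23 alternatives.

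Tlr2, the shared subunit of the lipopeptide receptors, was nearly level. Melanophages measured 10.03, 9.59 and 9.82 without and 9.95, 10.12 and 9.96 with MHC-II, and macrophages 9.51, 9.95 and 9.94 without and 10.11, 9.95 and 9.83 with it. All neighbouring groups overlapped. The 95% interval of the difference was −0.05 to 0.41 for MHC-II-positive minus MHC-II-negative cells and −0.20 to 0.26 for melanophages minus macrophages, each averaged over the other factor.

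Tlr6, which pairs with TLR2 for diacylated lipopeptides, lay not far above the array medians, so its differences may be lower bounds. It measured 3.87, 3.62 and 3.96 in MHC-II-negative and 4.08, 3.98 and 3.86 in MHC-II-positive melanophages, and 3.74, 3.70 and 4.19 in MHC-II-negative and 3.56, 3.70 and 3.10 in MHC-II-positive macrophages. The nearest arrays of the macrophage groups, both at 3.70, differed only beyond the second decimal. MHC-II-positive macrophages had the lowest mean (3.45 ± 0.31) and the other means lay between 3.82 and 3.97 with overlapping arrays. The MHC-II difference was 0.16 ± 0.17 in melanophages and −0.42 ± 0.17 in macrophages, and the interaction of 0.58 ± 0.25 did not pass (adjusted p = 0.9996). The macrophage difference was −0.27 ± 0.17 without replicate 3 of the MHC-II-negative group and −0.25 ± 0.16 without replicate 3 of the MHC-II-positive group. Tlr1 and Tlr6 are close relatives, and whether their probes pick up both transcripts was not tested.

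Cd14, the co-receptor that delivers lipopolysaccharide to TLR4, measured 11.11, 11.08 and 10.88 in MHC-II-negative and 11.37, 11.58 and 11.69 in MHC-II-positive melanophages. The macrophage arrays gave 10.80, 11.30 and 11.37 in the MHC-II-negative and 11.64, 11.62 and 11.66 in the MHC-II-positive group. Every MHC-II-positive array lay above every MHC-II-negative array of its cell kind. The difference averaged over cell kind was 0.50 ± 0.10, or 1.41-fold, the smallest adjusted p of any member (0.0618), just above the threshold. It was 0.52 ± 0.14 in melanophages and 0.48 ± 0.14 in macrophages (adjusted p = 0.414 and 0.327), the latter 0.30 ± 0.11 without MHC-II-negative macrophages replicate 1 (adjusted p = 0.499). The adjusted p over all alternatives ran from 0.0278 to 0.159, and Cd14 passed in 4 of 23 alternatives, among them the fit without MHC-II-negative macrophages replicate 1 (0.41 ± 0.07, adjusted p = 0.0379).

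Tlr4, the lipopolysaccharide receptor itself, measured 7.73, 7.45 and 7.57 in melanophages without MHC-II and 7.08, 6.80 and 7.05 in those with it, without overlap. In macrophages it measured 7.13, 7.58 and 7.40 against 7.19, 7.53 and 7.43, and the groups overlapped almost fully. The difference was −0.61 ± 0.14 in melanophages (adjusted p = 0.204) and 0.01 ± 0.14 in macrophages (adjusted p = 0.994). The interaction, −0.62 ± 0.19, had the smallest unadjusted p of the members, yet did not pass (adjusted p = 0.9996), so the cell kinds are not shown to differ here. Ordered by mean, MHC-II-negative melanophages (7.58 ± 0.14) overlapped with both macrophage groups (7.38 ± 0.18 and 7.37 ± 0.23), and MHC-II-positive melanophages (6.98 ± 0.16) lay below them. Ly96, which encodes the MD-2 protein that holds lipopolysaccharide on TLR4, had an MHC-II difference of −0.41 ± 0.18 averaged over cell kind (adjusted p = 0.54). Unlike Tlr4, its means were closer in melanophages (9.63 without and 9.47 with MHC-II) than in macrophages (9.51 and 8.86). The MHC-II-positive macrophage arrays measured 8.16, 8.93 and 9.48.

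**Figure D2:**
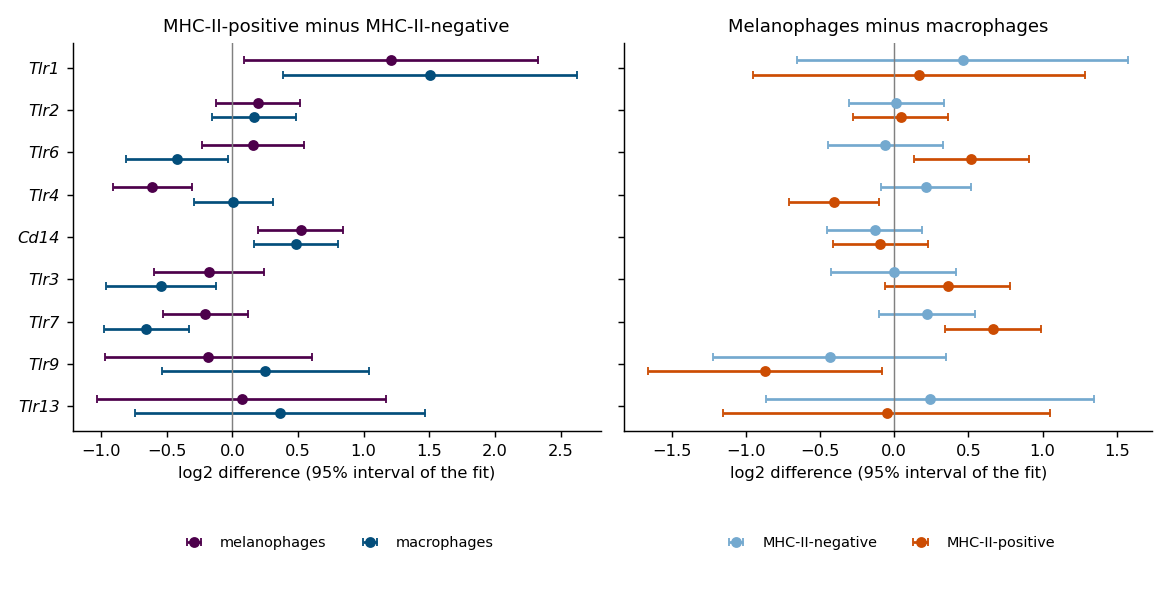
Log2 differences of the 9 measured genes with the 95% intervals of the fit: MHC-II-positive minus MHC-II-negative in each cell kind (left) and melanophages minus macrophages in each MHC-II class (right). Tlr1 and Cd14 lie to the right of 0 in both cell kinds, Tlr4 lies at −0.61 in melanophages and 0.01 in macrophages, and Tlr7 lies at 0.67 between the cell kinds of the MHC-II-positive class; no adjusted p passed.

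Among the endosomal receptors, Tlr7, which binds single-stranded RNA, measured 8.97, 8.69 and 8.63 in MHC-II-negative and 8.50, 8.72 and 8.45 in MHC-II-positive melanophages. Among macrophages, the MHC-II-negative group had 8.32, 8.76 and 8.54, and the MHC-II-positive group 7.69, 7.86 and 8.11. The MHC-II-positive macrophage arrays lay below the arrays of each other group, while the remaining 3 groups overlapped. The MHC-II difference averaged over cell kind was −0.43 ± 0.10 (1.35-fold lower, adjusted p = 0.123), with −0.66 ± 0.15 in macrophages (adjusted p = 0.13) and −0.21 ± 0.15 in melanophages (adjusted p = 0.955). The interaction, 0.45 ± 0.21, did not pass (adjusted p = 0.9996). Between the cell kinds Tlr7 was 0.44 ± 0.10 higher in melanophages (adjusted p = 0.226), made up of 0.67 ± 0.15 in the MHC-II-positive class (adjusted p = 0.298) and 0.22 ± 0.15 in the MHC-II-negative class (adjusted p = 0.979). Tlr7 passed for MHC-II with quantile normalization repeated (−0.50 ± 0.09, adjusted p = 0.0353) and in 2 further alternatives of 23.

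Tlr3, a receptor for double-stranded RNA, lay near the array medians, so its differences may be lower bounds. Melanophages measured 4.27, 3.99 and 4.01 without and 4.16, 3.78 and 3.79 with MHC-II, and macrophages 3.66, 4.38 and 4.24 without and 3.32, 3.59 and 3.73 with it. As for Tlr7, MHC-II-positive macrophages had the lowest mean (3.55 ± 0.21). Their arrays overlapped with those of MHC-II-negative macrophages only through replicate 1 of the latter (3.66). The MHC-II difference was −0.36 ± 0.13 averaged over cell kind (adjusted p = 0.409). It was −0.54 ± 0.19 in macrophages (adjusted p = 0.466) and −0.18 ± 0.19 in melanophages (adjusted p = 0.99).

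Tlr9, the receptor for unmethylated CpG DNA, was the member with the largest mean difference between the cell kinds. It measured 5.78, 5.51 and 5.83 in melanophages without MHC-II and 4.77, 5.71 and 6.10 in those with it. The macrophage values were 5.59, 6.38 and 6.45 without and 6.55, 6.79 and 5.85 with MHC-II. Arrays of the cell kinds overlapped in both MHC-II classes. Melanophages minus macrophages gave −0.65 ± 0.25 (adjusted p = 0.576), and the MHC-II difference of 0.03 ± 0.25 changed its sign under 8 of 23 alternatives.

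Tlr13, which recognises bacterial ribosomal RNA in mice, varied more within groups than between them. Melanophages measured 6.96, 5.75 and 5.29 without and 6.87, 5.56 and 5.77 with MHC-II, and macrophages 5.01, 6.63 and 5.63 without and 6.22, 6.08 and 6.06 with it. The group means lay between 5.76 and 6.12, and the SDs reached 0.87. The 95% interval for melanophages minus macrophages, −0.69 to 0.88, leaves a difference of either sign of more than 1.5-fold possible.

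**Figure D3:**
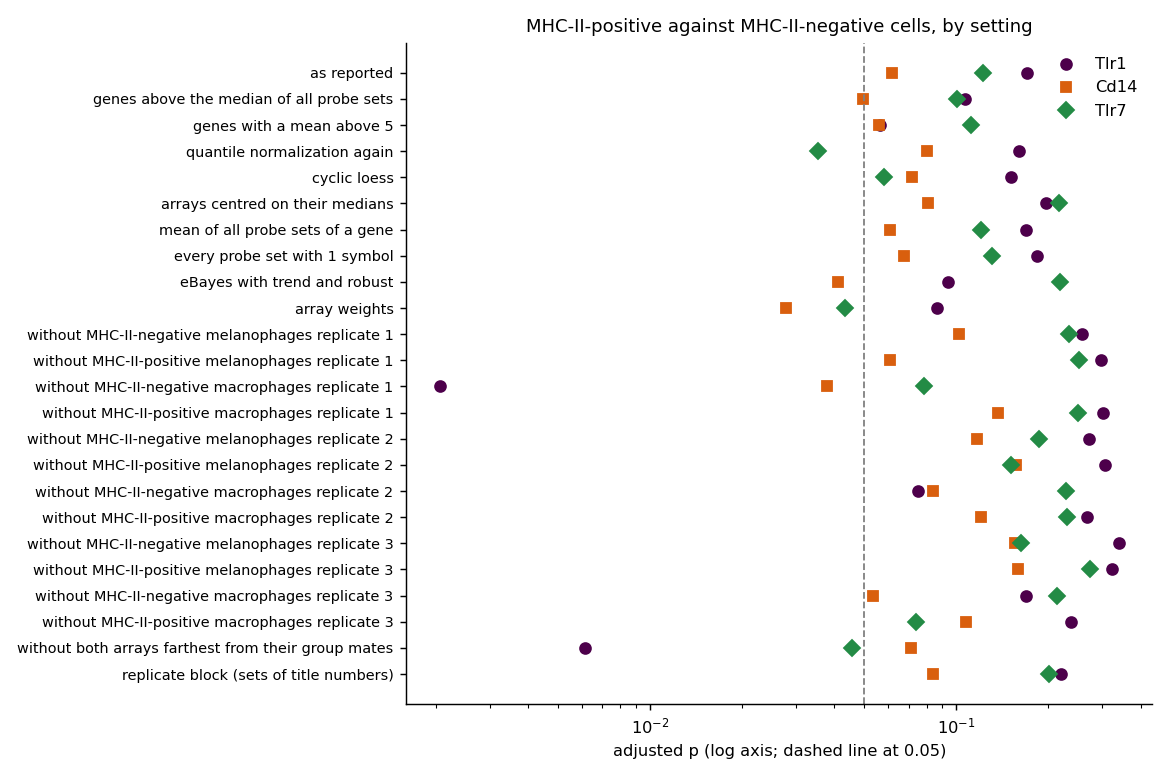
Adjusted p of the MHC-II difference averaged over cell kind for Tlr1, Cd14 and Tlr7, as reported and under each of 23 alternatives (log axis, dashed line at 0.05). Tlr1 moves from 0.17 to 0.00207 without MHC-II-negative macrophages replicate 1, while Cd14 stays between 0.0278 and 0.159.

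The other mouse genes of the family were Tlr8, the neighbour of Tlr7 on the X chromosome, and Tlr12, and Tlr11 was not analysed here. Tlr8 had group means between 4.42 and 5.02 and an MHC-II difference of −0.25 ± 0.25 (adjusted p = 0.811). Tlr12 lay below the array medians in all 4 groups (2.47 to 2.58) and had an MHC-II difference of −0.05 ± 0.05 (adjusted p = 0.829). Between the cell kinds Tlr8 differed by −0.05 ± 0.25 (adjusted p = 0.981) and Tlr12 by −0.06 ± 0.05 (adjusted p = 0.836).

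Genes of the pathway around the receptors were read from 8 lists with 137 entries, of which 130 were measured. Between MHC-II-positive and MHC-II-negative cells, as a mean of both cell kinds, 10 of the 130 were higher (0.632% of all genes) and 0 were lower (0.13% of all genes). The share was larger among brighter genes. Of the 3907 genes with a mean above 5, fitted alone, 112 were higher and 26 lower, while the lists also hold dimmer genes. The lists were chosen with earlier results of these data known, so these counts are not a test of the pathway. Of 13 genes of folding and trafficking 0 passed, with a median difference of 0.23. The smallest adjusted p of that list belonged to Slc15a3, an endolysosomal peptide transporter (1.29 ± 0.31, adjusted p = 0.121). Like Tlr1, Slc15a3 passed without MHC-II-negative macrophages replicate 1 (0.96, adjusted p = 0.00834). Of 22 measured adaptors and kinases 0 passed (median 0.07), Irak2, a kinase next to MyD88, having the smallest adjusted p (0.55 ± 0.17, adjusted p = 0.281). Of 14 transcription factors 0 passed (median 0.17), where Cebpd was nearest (−0.53 ± 0.14, adjusted p = 0.186). Among 15 accessory and co-receptor genes 1 rose (median 0.04), the β-glucan receptor Clec7a (2.20 ± 0.25, adjusted p = 0.00212).

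The response genes are ones that TLR signals are known to induce. Of these 26 genes 5 rose and 0 fell (median 0.40), namely Ptgs2, Il1b, Il10, Cd40 and Acod1. The anti-inflammatory cytokine Il10 rose by 1.08 ± 0.19 (adjusted p = 0.033), the co-stimulatory receptor Cd40 by 0.97 ± 0.14 (adjusted p = 0.01) and Acod1, which makes itaconate, by 0.77 ± 0.14 (adjusted p = 0.0383). Ptgs2, a prostaglandin synthase, rose by 2.69 ± 0.20 and the cytokine Il1b by 1.56 ± 0.11 (adjusted p = 9.83e-05 each). Among 20 brakes on the pathway 1 rose (median 0.11), Tnip3, a partner of the NF-κB inhibitor A20 (2.48 ± 0.18, adjusted p = 9.83e-05). Of 18 other innate sensors 3 rose (median 0.12), the lectin Clec4e (1.93 ± 0.18, adjusted p = 0.000454) and the inflammasome sensors Nlrp3 (1.06 ± 0.12, adjusted p = 0.00262) and Mefv, which encodes pyrin (1.37 ± 0.21, adjusted p = 0.0142).

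Of these 10 calls, Clec7a, Tnip3, Ptgs2, Il1b, Cd40, Nlrp3, Clec4e and Mefv passed in all 12 fits that leave out 1 array. Il10 passed in 4 of them, those leaving out replicate 1 of either MHC-II-positive group, replicate 2 of the melanophages without MHC-II or replicate 3 of the macrophages without it (highest adjusted p of the 12 fits 0.0966). Acod1 passed in 3, those leaving out replicate 1 of the MHC-II-positive melanophages or of either macrophage group (highest adjusted p 0.101). Some markers of other cells were called in the same comparison. Of 9 dendritic cell markers Itgax, Cd207 and Ccr7 rose, of 5 measured monocyte markers Fn1 and Ccr2, whose protein the sort selected against, and of 8 measured T cell and ILC markers Cd2 and Il7r. Ccr2 rose by 3.23 (adjusted p = 3.93e-05), more than any other gene of the pathway and marker lists. The others rose by 1.97 (Ccr7), 1.94 (Il7r), 1.37 (Cd2), 1.35 (Fn1), 1.26 (Itgax) and 1.20 (Cd207). Each of these markers passed in all 12 fits that leave out 1 array. The mean of the dendritic cell markers ran from 3.16 to 3.43 over the MHC-II-negative arrays and from 3.50 to 4.12 over the MHC-II-positive arrays. That of the monocyte markers ran from 2.92 to 3.31 and from 3.81 to 4.32, and that of the T cell and ILC markers from 3.48 to 3.59 and from 3.82 to 3.93. These means include the called genes. Of the 9 dendritic cell markers 7 had a difference above 0, with a median of 0.38. Of the 5 monocyte markers 3 did (median 0.02). Of the 8 T cell and ILC markers 5 did (median 0.02, lowest −0.62). No dendritic cell marker had a group mean above 5 in either MHC-II-negative group, 1 did in MHC-II-positive melanophages and 3 did in MHC-II-positive macrophages. The part of these cells in the result was not tested.

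**Figure D4:**
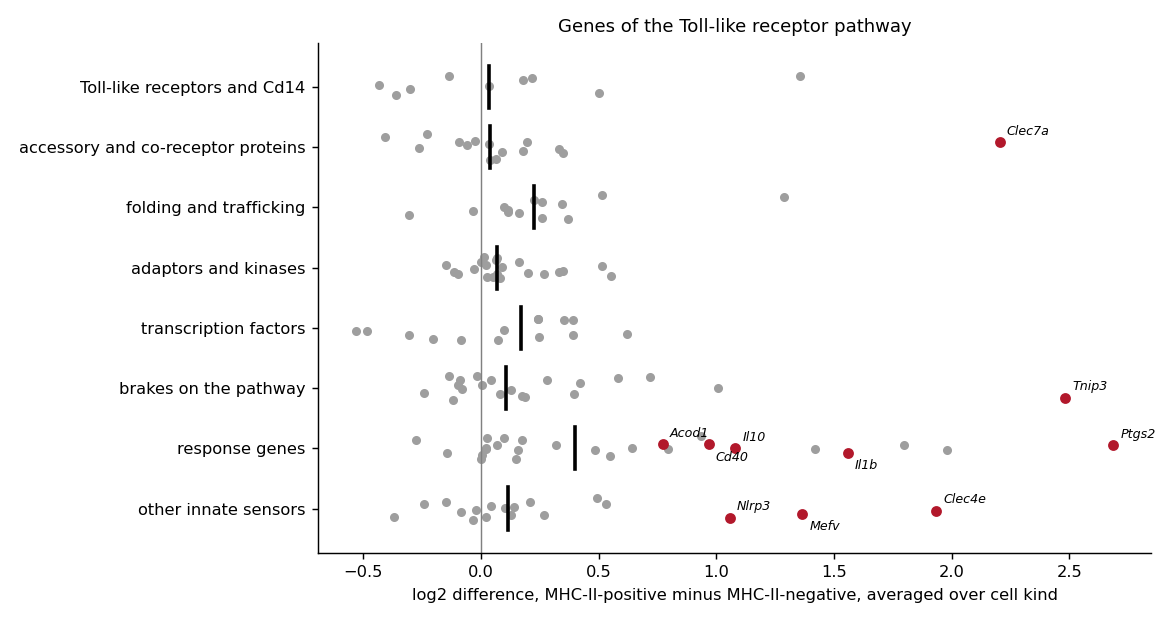
Log2 difference of MHC-II-positive minus MHC-II-negative cells, as the mean of both cell kinds, for the 9 measured members and 7 pathway lists (1 point per gene, red where the adjusted p is under 0.05, black bar at the list's median; vertical scatter carries no value). The 10 called genes all lie to the right of 0, 5 of them among the response genes, and no member is called.

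Between melanophages and macrophages, averaged over MHC-II class, 1 of the 130 pathway genes was higher (0.0552% of all genes) and 0 were lower (0.0652% of all genes). The called gene was the C-type lectin Clec4d (0.81 ± 0.12, adjusted p = 0.0404), which passed in 2 of the 12 fits that leave out 1 array, those leaving out replicate 1 of the macrophages without MHC-II or replicate 3 of those with it (highest adjusted p 0.106). In the other lists the genes with the smallest adjusted p were Cd36, a scavenger receptor that also serves TLR2 and TLR6 (0.29 ± 0.05, adjusted p = 0.119), Syvn1 (−0.39 ± 0.19, adjusted p = 0.696), the kinase Ikbkb (−0.23 ± 0.06, adjusted p = 0.293), Relb (−0.31 ± 0.11, adjusted p = 0.513), the inhibitory receptor Cd200r1 (0.50 ± 0.11, adjusted p = 0.165) and Icam1 (−0.52 ± 0.19, adjusted p = 0.529). List medians lay between −0.14 and −0.03. Of the marker lists, 2 of the 9 dendritic cell markers were lower in melanophages (0.0652% of all genes). These were Itgax (−0.80 ± 0.11, adjusted p = 0.0404) and Cd207 (−1.16 ± 0.15, adjusted p = 0.0262). The 9 markers had a median difference of −0.04, and 3 of them lay above 0. Itgax passed in 3 of the 12 fits that leave out 1 array, each without an MHC-II-positive macrophage array (highest adjusted p 0.111). Cd207 passed in 5, those without any 1 of these 3 arrays, replicate 1 of the macrophages lacking MHC-II or replicate 2 of the melanophages carrying it (highest adjusted p 0.0875). By class, 2 of the 9 dendritic cell markers were called lower in melanophages among MHC-II-positive cells (0.015% of all genes). Among MHC-II-negative cells 0 were called (lowest difference −0.32). The interaction called 0 of the 9 (smallest adjusted p = 0.9655), so the classes are not shown to differ.

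Over the 12 arrays the highest Pearson r between members was 0.87 for Tlr1 and Cd14 (0.87 after subtracting group means, 0.90 over 11 arrays without MHC-II-negative macrophages replicate 1). Next came Tlr3 and Tlr7 with 0.83 (0.71 and 0.84), and then Tlr1 and Tlr2 with 0.74 (0.65 and 0.48). After subtracting group means the order differed, and Tlr3 was closer to Tlr4 (0.86), Tlr13 (0.76) and Tlr1 (0.75) than to Tlr7. Without that subtraction Tlr3 had r = 0.43 with Tlr4, 0.38 with Tlr13 and −0.10 with Tlr1. Over the 11 arrays these were 0.40, 0.30 and −0.56. How far the values after subtracting group means rest on MHC-II-negative macrophages replicate 1 was not tested. The genes most like each member, among 9387 with a mean above that of the median gene, were Ptpre (r = 0.95), Slc15a3 (0.92) and Errfi1 (0.92) for Tlr1, and Rab8b (0.93), Apod (0.93) and Tmem39a (0.93) for Cd14. For Tlr7 they were Cd36 (0.92), Brip1os (0.89) and Tnfrsf22 (0.87), for Tlr4 Aurka (0.93), Setd3 (0.83) and Ednrb (0.81), and for Tlr2 Homer1 (0.95), Atrip (0.93) and Usp39 (0.91). Tlr3 was nearest to Rasa1 (0.90), Mblac2 (0.89) and Ncoa4 (0.88), Tlr6 to Vkorc1l1 (0.83), Ppil4 (0.82) and Oser1 (0.82), Tlr9 to Bag3 (0.95), Mef2d (0.94) and Wdr81 (0.94), and Tlr13 to Ikzf1 (0.87), Timm50 (0.85) and Lipa (0.84). All genes of an array share its RNA and labelling, so these correlations describe 12 arrays and carry no test.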

How the data were processed

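The authors deposited log2 expression values, and the submitters' processing notes name RMA and the package oligo. Versions and genome build: not given in the sources used here. RNA (3 to 20 ng) was amplified and biotin-labelled with NuGEN kits, per the labels' protocols. The table has 35556 probe sets and 12 arrays, and no 2 arrays are identical. Of the probe sets, 21789 carry 1 symbol, 1621 several and 12146 none here. RefSeq identifiers (GRCm38.p6) required 0 symbol updates. The probe set with the highest mean was kept per gene (19938 genes). limma 3.58.1 (lmFit, eBayes, R 4.3.3) fitted 4 group means (8 residual and 2.44 prior degrees of freedom), and tests are two-sided over 7 comparisons. The fit was tested on simulated normal values, with 200 differences of 1 or 2 planted in genes above the median gene mean. For cell kind and MHC-II, each averaged over the other, it recovered 84% and 79% of those of 1. Of those of 2 it recovered 98% and 93%, and false calls numbered 9 and 13. Smaller differences, differences in dimmer genes and arrays far from their group mates were not simulated. Array number limits the precision.

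Members and lists were chosen with earlier results of these data known. All members are named. From each pathway list up to 6 called genes per averaged comparison, or else the smallest adjusted p, are named, and from marker lists the called genes. Likeness takes the 3 highest correlations, with predicted genes, clones, antigen receptor segments and olfactory or vomeronasal receptors left out. Other lists (neutrophil, mast cell, B cell, keratinocyte, fibroblast, endothelial) had 0 called genes in both averaged comparisons. Of the 8 mast cell markers, 0 had an MHC-II difference above 0, averaged over cell kind (median −0.18, lowest −1.17). With limma 3 of them had an unadjusted p under 0.05 (9.23% of all genes), and the list was not tested as a set. Alternatives covered dim-gene filters, normalization, probe sets, the variance model, the arrays in the fit, left-out arrays and, added later, a block on title numbers.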

Additional observations from a re-analysis of the deposited data

How the results depend on the processing

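The count of called members was 0 in 154 of 165 alternative fits of the 7 comparisons. For MHC-II averaged over cell kind it was 1 with genes above the median of all probe sets (Cd14), with quantile normalization repeated (Tlr7) and with a trended, robust variance (Cd14), 2 with array weights (Tlr7 and Cd14), 0 to 2 when 1 array was left out, and 2 without both arrays farthest from their group mates (Tlr1 and Tlr7). Called among all genes were 190 of 10841 above the median of all probe sets. Of 19938 genes, 152 were called as reported, 173 with quantile normalization repeated, 165 with the trended variance and 215 with array weights. There were 96 to 158 when 1 array was left out and 156 without both far arrays. Within macrophages the count of members was 1 with quantile normalization repeated and 1 with array weights (Tlr7 each). Among all genes 90 and 101 were then called, against 68 as reported. Within melanophages the count of members was 1 in the fit of those arrays alone, 0 to 1 when 1 array was left out and 1 without both far arrays (Tlr1 each). Among all genes 35, 19 to 46 and 54 were then called, against 42 as reported. Called pathway genes between the cell kinds numbered 2 with quantile normalization repeated, 2 without both far arrays and 0 to 1 when 1 array was left out. Among all genes 36, 117 and 1 to 30 were then called, against 24 as reported. Acod1 missed the threshold with quantile normalization repeated (adjusted p = 0.0537), and it and Il10 without both far arrays (0.0762 and 0.102). The cause was not tested.

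Signs changed for differences that were not called. For cell kind, Tlr1 was −0.070 without both far arrays, Tlr2 −0.0054 with array weights and −0.076 without both, Tlr13 −0.084 and −0.11, and Tlr8 0.0017 with quantile normalization repeated. For MHC-II, Tlr9 was −0.025 with quantile normalization repeated and −0.0015 with cyclic loess, and Tlr13 −0.018 with array weights. When 1 array was left out, cell kind differences ran from −0.081 to 0.56 for Tlr1, −0.044 to 0.085 for Tlr2, −0.15 to 0.31 for Tlr13 and −0.29 to 0.075 for Tlr8, and the MHC-II difference of Tlr9 from −0.11 to 0.22. With genes of a mean above 5, Tlr3 and Tlr6 were not tested. The labels number no replicates, but running numbers in the titles form 3 sets of consecutive numbers with 1 array of each group, and their meaning is not stated. Deviations from the group means did not follow these sets (5 of 18 pairs of a set had r above 0.1, median −0.03, and 2 of 12 arrays were closest to their own set). A block on the sets, chosen after seeing the data, called 0 members in each comparison and 0 pathway genes between the cell kinds. Clec4d (adjusted p = 0.0709), Cd207 (0.0612) and Acod1 (0.0783) then missed the threshold, and Cebpd passed (0.0323). With 3 arrays per group and no measure of signal over background, small differences of dim genes such as Tlr3, Tlr6 and Tlr12 were not resolved.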
